A study of Musa balbisiana with 10 samples.

Results

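The most abundant transcribed regions of banana pulp were described in fruit of Musa balbisiana Klutuk Wulung, a banana of the BB group, with and without ethylene. A region was a stretch of a chromosome built by pooling the loci of 300 bp or longer of the 10 expression tables and joining those that overlapped, and its value in a table was the sum of the FPKM of its loci there. Members were selected on their level: of 27929 regions listed in every table, the 62 with a mean of at least 500 FPKM over the 10 libraries. FPKM are fragments scaled by transcript length and by the mapped fragments of the library. The regions are numbered here from 1, the highest mean, to 62. Pulp RNA came from fruit exposed to exogenous ethylene gas at 100 µl/L in a glass container and from control fruit without ethylene, sampled on day 1 and on day 7 of ripening. After an incubation the study kept the bananas outside the container at room temperature, so the gas was not given up to day 7. The groups were ethylene day 1 (E1, libraries A and C), control day 1 (K1, libraries A and B), ethylene day 7 (E7, libraries A, B and C) and control day 7 (K7, libraries A, B and C). All groups share the cultivar and the tissue, and the control fruit ripened over the same days.

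Bananas are climacteric fruits, in which a burst of ethylene sets off ripening and ethylene given from outside starts it early. During ripening the pulp breaks down starch, softens its cell walls and forms sugars and aroma compounds, and some gene products reach very high levels while others that filled the unripe pulp decline. The identifiers of these tables (Mba followed by chromosome and number) are not paired with gene names or products in the sources used, so the regions are given by identifier, by locus tag and by position, with no role. The positions are those of the authors' tables on the DH PKW v1.1 genome. The pulp label was not checked against marker genes for the same reason.

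The summed FPKM of all regions differed between libraries although FPKM is scaled by library, with 484019 to 487900 in E1 and 365326 to 367745 in K1, and with 431577 to 444288 in E7 and 349403 to 369868 in K7. Single-end reads made up E7 A, K1 A and K7 A, and paired-end reads the remaining 7 libraries. The tables hold no fragment counts, so the counts behind single values are not known. The study's read totals per library were not used here. The upper and lower bounds that the tables give lay a median of 3.5% from the value for the main locus of a member, with 0.400% to 26.1% over the 62 members. The labels number the libraries as replicates without saying which fruit they came from, so the p-values measure the spread between these libraries. In pulp RNA from whole tissue, fewer cells of a type and less RNA per cell cannot be told apart.

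A mean of 500 FPKM was far above the usual level: the median of the mean FPKM was 964.6 over the 62 members and 9.04 over the 16821 regions with a mean of at least 1. In every library, 9 or 10 of the 10 highest regions were members. Each library had 48 to 72 regions at 500 FPKM or more, and 38 to 58 of the members were at that level. Only 18 members were at or above 500 FPKM in all 10 libraries, and the fewest libraries at that level for any member was 3. By group means, 20 members reached 500 FPKM in all 4 groups, 17 in E1 or E7 or both and in neither control group, 2 in control groups alone, and 23 in other combinations. Most of these 23 reached 500 FPKM in K1, E7 and K7 and not in E1, regions 9, 38 and 40 among them. The mean level that selected the members thus joined regions high throughout, regions high in ethylene-treated pulp and regions below 500 FPKM in E1 alone, besides smaller sets. Just inside the limit lay region 61 (chromosome 8, 1386297 to 1389141) with a mean of 517.9 FPKM and region 62 (chromosome 4, 18114105 to 18133659) with 504.5 FPKM. Just outside lay a region of chromosome 10, 26179697 to 26181627, with 492.0 FPKM and a region of chromosome 1, 27696735 to 27712890, holding Mba01_g29800, Mba01_g29820 and Mba01_g29830, with 490.2 FPKM.

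**Figure D1:**
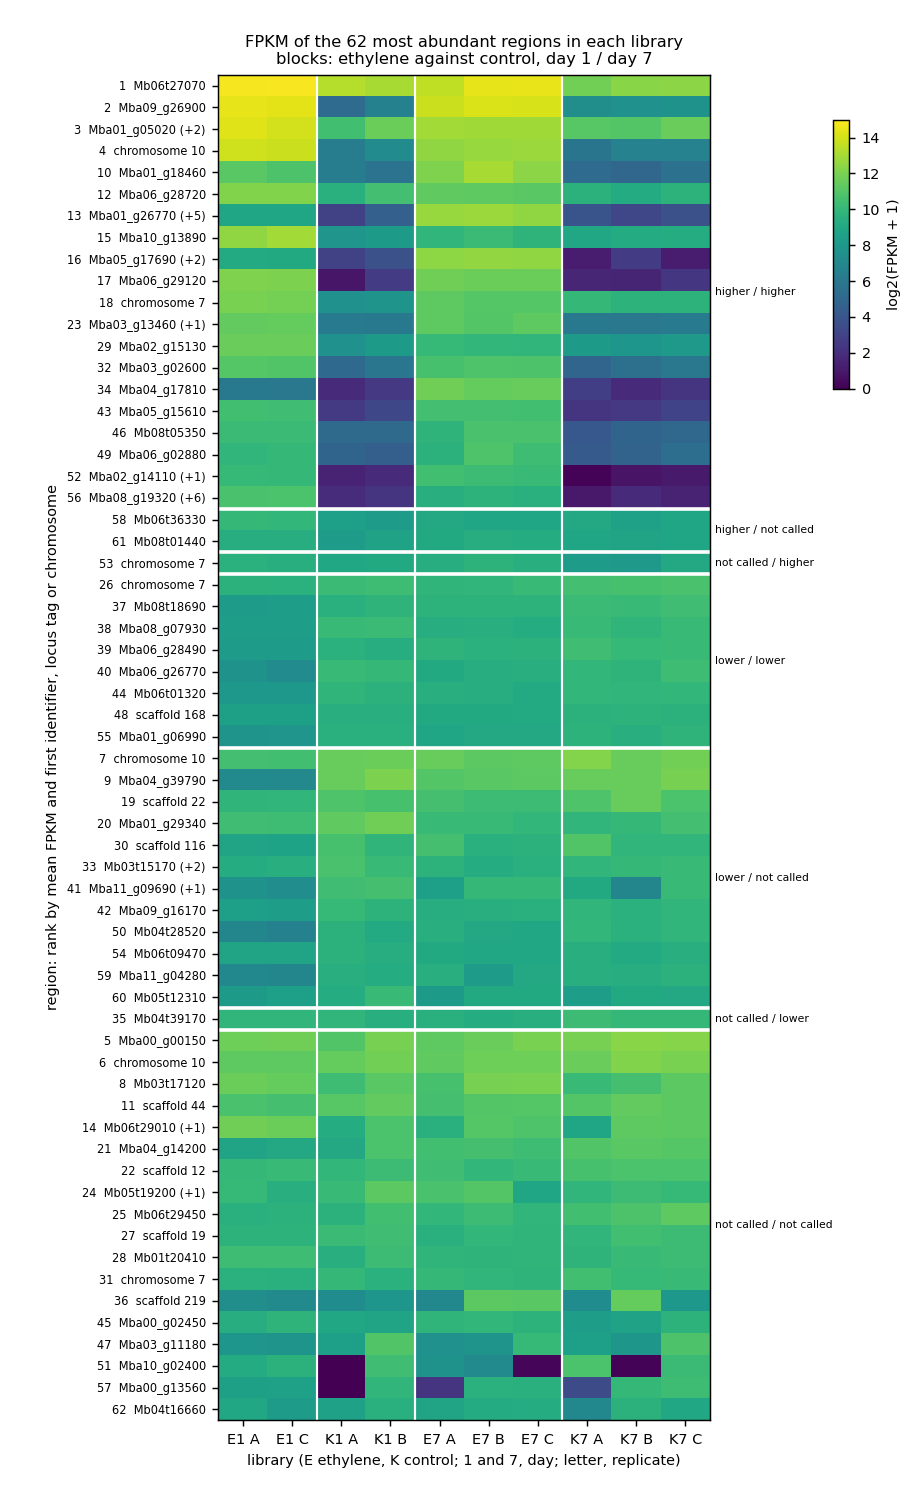
The level of each of the 62 regions (rows, log2(FPKM + 1), dark to yellow) in each of the 10 libraries (columns, ethylene left of control on each day). Rows are in blocks by the call of ethylene against control on day 1 and on day 7, and the 20 regions higher on both days form the top block, with most of its rows dark in the control columns.

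The 62 regions held a larger part of the summed FPKM in ethylene-treated than in control pulp. Their share was 32.1% and 31.7% in E1 A and C, against 16.03% and 19.9% in K1 A and B. On day 7 it was 26.9%, 33.5% and 33.1% in E7 A, B and C, against 16.2%, 19.3% and 20.2% in K7 A, B and C. Every ethylene library was above every control library, with means of 31.9% ± 0.298 in E1 and 17.99% ± 2.77 in K1 (SD, n = 2 each), and of 31.2% ± 3.71 in E7 and 18.6% ± 2.06 in K7 (SD, n = 3 each). Since the same values selected the members, these shares are a description and were not tested. The FPKM of the members summed to 2.35 times as much in E1 as in K1 and to 2.04 times as much in E7 as in K7, while all other regions together summed to 1.1 and 1.03 times as much. The members accounted for 74.6% of the difference in the summed FPKM between E1 and K1 and for 90.2% of that between E7 and K7.

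The larger share lay in few regions. The 4 highest regions alone held 17.1% ± 0.442 of the summed FPKM in E1 and 3.21% ± 0.0540 in K1 (SD, n = 2 each), and 11.3% ± 2.07 in E7 and 2.05% ± 0.371 in K7 (SD, n = 3 each). The 17 regions that reached 500 FPKM in neither control group held 12.3% in E1 and 0.379% in K1, and 13.7% in E7 and 0.463% in K7, a difference their level set fixes in part. The 20 regions that reached 500 FPKM in all 4 groups held 15.7% in E1 and 11.7% in K1, and 12.7% in E7 and 11.4% in K7. To gather 50% of the summed FPKM took 357 and 382 regions in E1, against 1184 and 944 in K1, and 675, 368 and 415 regions in E7, against 1175, 1031 and 870 in K7. The summed FPKM of the 27929 regions was thus concentrated in fewer regions in every ethylene library than in every control library. Loci under 300 bp and regions missing from any table are not part of that sum.

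**Figure D2:**
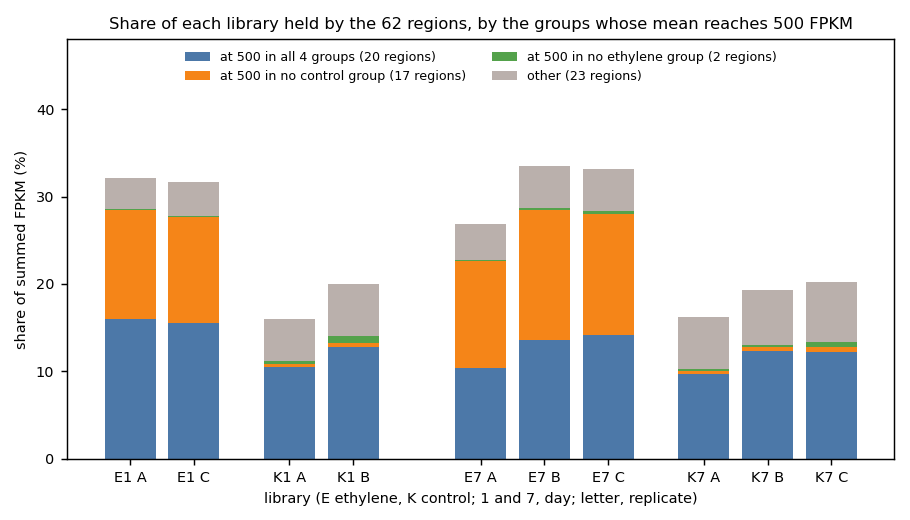
The share of the summed FPKM (%, bars from 0) held by the 62 regions in each library, stacked by the groups whose mean reaches 500 FPKM. The ethylene libraries reach 26.9% to 33.5% and the control libraries 16.03% to 20.2%, and the orange layer of 17 regions is nearly absent from the control bars.

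Changes were tested on log2(FPKM + 1) with limma over the 16821 regions, two-sided, at an adjusted p of 0.05, and all log2 fold changes below are on that scale, which understates changes of low values. On day 1, ethylene against control, 22 members were called higher and 20 lower, where 17.1% of all tested regions were called higher and 24.8% lower. On day 7, 21 members were called higher and 9 lower, where 8.75% of all tested regions were called higher and 4.71% lower. The rule used the same values, so these counts describe the members and are not evidence that abundance goes with a response. The median log2 fold change of the members was 0.07 on day 1 and -0.05 on day 7, against -0.24 and -0.11 over all tested regions. Median-of-ratios scaling moved the day 1 median of all regions to -0.03 and changed the day 7 calls to 21 higher and 3 lower. Quantile normalization changed the calls to 20 higher and 26 lower on day 1 and to 18 higher and 22 lower on day 7. The shares of all tested regions called under these scalings are not given, so these counts describe the members alone. All 5 ethylene libraries lay above all 5 control libraries for 22 members and below them for 12, where 10.1% and 10.1% of all tested regions did so.

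Both days together, 20 members were called higher on day 1 and on day 7 and 8 were called lower on both. Another 12 were lower on day 1 only, 2 higher on day 1 only, 1 higher on day 7 only, 1 lower on day 7 only, and 18 were called on neither day. "Only" here means that the other day missed the threshold. The shares of all tested regions with such joint patterns are not given, so the counts in this paragraph describe the members alone. The 20 members higher on both days had log2 fold changes of 1.63 to 10.29 on day 1 and 0.79 to 10.85 on day 7. The 8 lower on both days had changes of -2.61 to -0.67 on day 1 and -0.71 to -0.54 on day 7, so on day 7 all of them lay close to one another. Of the 22 members called higher on day 1, 17 were those that reached 500 FPKM in neither control group. These had to be higher with ethylene to be members, so nothing is read from their count. Of the 20 members at 500 FPKM in all 4 groups, 3 were called higher on both days, 1 lower on both, 4 lower on day 1 alone, 1 lower on day 7 alone and 11 on neither.

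**Figure D3:**
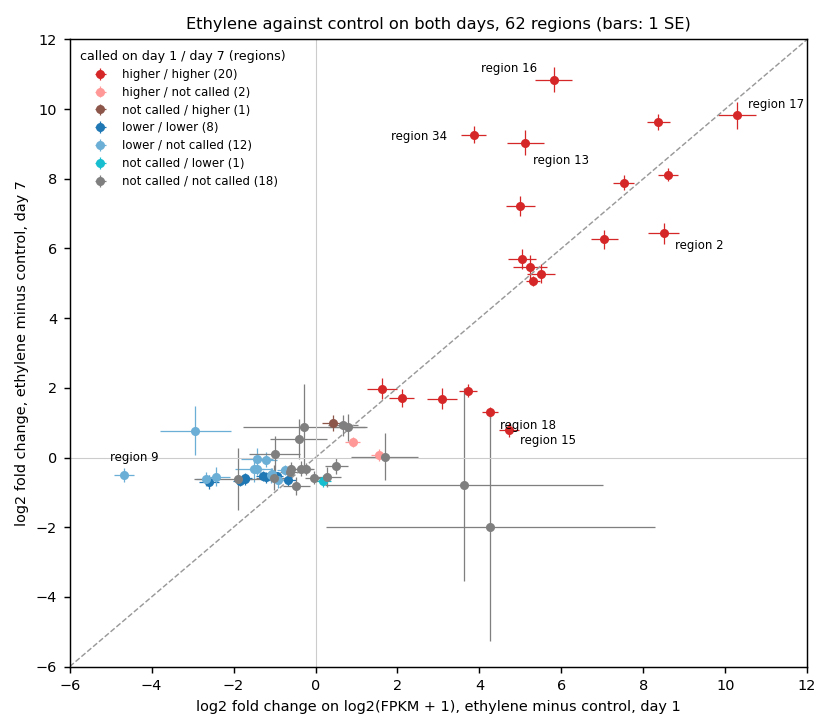
Log2 fold change of ethylene minus control on day 1 (x axis) and on day 7 (y axis) for the 62 regions, with bars of 1 SE and the line of equal change. Regions 13, 16 and 34 lie far above the line, regions 2, 15 and 18 below it, and region 9 is at -4.67 on day 1 and -0.51 on day 7.

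Region 1 (chromosome 6, 32928189 to 32932292), which spans the locus tag C4D60_Mb06t27070 and holds no Mba identifier, was the highest region of 8 of the 10 libraries. It had 28144 and 29252 FPKM in the E1 libraries, against 10354 and 8302 FPKM in the K1 libraries. On day 7 it had 12128, 21861 and 23380.5 FPKM in the E7 libraries, against 3643, 5262 and 5295 FPKM in the K7 libraries. Ethylene and control libraries did not overlap on either day, and single-end E7 A was the lowest of the E7 libraries. The log2 fold change was 1.63 (SE 0.37, adjusted p = 0.00575) on day 1 and 1.98 (SE 0.30, adjusted p = 0.00175) on day 7. Without the filter on low values both calls were lost, with adjusted p of 0.713 and 0.622, and quantile normalization, which gives the first-ranked region of every library the same value, returned 0 on day 1 and 0.14 on day 7. Region 1 was thus the first-ranked region of 4 of the 5 ethylene libraries and of 4 of the 5 control libraries.

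Region 2 (chromosome 9, 37384449 to 37385409) is the single identifier Mba09_g26900, whose span is the whole region. It had 22301 and 21817 FPKM in E1, against 36.9 and 97.0 FPKM in K1, and 13996, 18483 and 17466 FPKM in E7, against 169, 190.4 and 212 FPKM in K7. It ranked 1 or 2 in every ethylene library and between 156 and 1769 in the control libraries, so its place among the abundant regions came from ethylene-treated pulp. The log2 fold change was 8.50 (SE 0.37, adjusted p = 2.54e-07) on day 1 and 6.44 (SE 0.30, adjusted p = 3.78e-07) on day 7.

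Region 4 (chromosome 10, 9401233 to 9414365) holds no Mba identifier and had 15226 and 14225 FPKM in E1, against 82.3 and 148 FPKM in K1. On day 7 it had 5819, 6464 and 6797 FPKM in E7, against 55.1, 98.6 and 99.4 FPKM in K7. Like region 2 it was far lower in every control library than in every ethylene library. The log2 fold change was 7.05 (SE 0.33, adjusted p = 3.92e-07) on day 1 and 6.27 (SE 0.27, adjusted p = 2.3e-07) on day 7. Within ethylene-treated pulp it was lower in E7 than in E1, at -1.21 (SE 0.30, adjusted p = 0.0161), and that call was lost without E1 A (adjusted p = 0.102) or without E1 C (0.0803). It was also lost with quantile normalization, at -0.29 (adjusted p = 0.591), and without the filter on low values (0.0684).

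Region 3 (chromosome 1, 3727394 to 3741717) contains Mba01_g05020, Mba01_g05030 and Mba01_g05040, but these identifiers held at most 0.7% of its FPKM in any library. The tag C4D60_Mb01t05050 had the span of the largest locus in 7 libraries, with 56.5% to 72.2% of the region's FPKM there. The region had 19523 and 16199 FPKM in E1, against 1391 and 3114 FPKM in K1, and 7904, 7539 and 7394 FPKM in E7, against 2186, 1989.8 and 3026 FPKM in K7. It was abundant in all libraries and higher in the ethylene libraries, with a log2 fold change of 3.09 (SE 0.37, adjusted p = 0.00013) on day 1 and 1.69 (SE 0.30, adjusted p = 0.00459) on day 7. Its log2 fold change of E7 over E1 was -1.22 (SE 0.34, adjusted p = 0.0239), and that lower level was not called without any 1 of the 5 ethylene libraries, with adjusted p of 0.0506 to 0.170. With quantile normalization it was at -0.07 (adjusted p = 0.874). Without the filter on low values it was lost (0.478), as were the calls of day 1 and day 7, with adjusted p of 0.0628 and 0.294.

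The next highest regions behaved otherwise. Region 5 covers 358190 bp of unplaced scaffold 3, joins many loci, and had 3236 and 3509 FPKM in E1, against 1972 and 3961 FPKM in K1, and 2474, 3104 and 4055 FPKM in E7, against 3866, 5117 and 5002 FPKM in K7. Its one identifier, Mba00_g00150, held 3.10% to 5.10% of the value in the 5 libraries that list it. Region 6 (chromosome 10, 8791323 to 8797671) had 2455 and 2477 FPKM in E1, against 2829.8 and 3538 FPKM in K1, and 2597, 3285 and 3344 FPKM in E7, against 3066, 4578 and 3983 FPKM in K7. Both were called on neither day, with log2 fold changes of 0.27 and -0.56 for region 5 and of -0.36 and -0.32 for region 6. Region 8 (chromosome 3, 25272393 to 25275157), with the tag C4D60_Mb03t17120 inside, had 3150.4 and 2844 FPKM in E1, against 1319 and 2289 FPKM in K1. It was not called either, at 0.78 (SE 0.48, adjusted p = 0.219) on day 1 and 0.86 (SE 0.39, adjusted p = 0.178) on day 7. It had 1597, 3823 and 4096 FPKM in E7, against 1171, 1515 and 2342 FPKM in K7, and the lowest E7 library lay below the highest K7 library.

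Region 7 (chromosome 10, 36037287 to 36038640) was the first-ranked region of K7 A. It had 1447 and 1407 FPKM in E1, against 2906 and 3160.2 FPKM in K1, and 2902, 2414 and 2521 FPKM in E7, against 4793, 2974 and 3626 FPKM in K7. The ethylene libraries lay below the control libraries on both days, and the change was called on day 1, at -1.09 (SE 0.25, adjusted p = 0.00664), and not on day 7, at -0.52 (SE 0.21, adjusted p = 0.130). The day 1 call was lost without E1 C (adjusted p = 0.0535) and without the filter on low values (0.212).

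Region 9 is Mba04_g39790 (chromosome 4, 42362410 to 42363176), with the span of the identifier. It had 141 and 134 FPKM in E1, against 2960.2 and 4197 FPKM in K1, the second-ranked region of both K1 libraries. On day 7 it had 2037, 2302 and 2432 FPKM in E7, against 2949, 2896 and 3832 FPKM in K7. The change was -4.67 (SE 0.24, adjusted p = 7.09e-07) on day 1 and -0.51 (SE 0.20, adjusted p = 0.118) on day 7, the strongest fall among the members on day 1. Within ethylene-treated pulp it was higher in E7 than in E1 by 4.02 (SE 0.22, adjusted p = 3.58e-06), so the low level of day 1 stood in the E1 libraries alone.

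Region 10 (chromosome 1, 14157157 to 14179783) contains Mba01_g18460, which was listed in the 5 control libraries alone and held 0.8% to 21.2% of the region there. The region had 2314 and 1805 FPKM in E1, against 76.6 and 51.7 FPKM in K1, and 4374, 8561 and 5314 FPKM in E7, against 37.4, 29.8 and 50.2 FPKM in K7. It was called higher on both days, by 5.0 (SE 0.35, adjusted p = 4.75e-06) and 7.22 (SE 0.29, adjusted p = 1.09e-07), and higher in E7 than in E1 by 1.51 (SE 0.32, adjusted p = 0.00672), a call lost without E1 C (adjusted p = 0.0708). In the control libraries the largest locus of the region lay in another stretch of it than in E1 A and E7 B, so the region's contrast compares different loci in part.

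The largest rises of day 1 were in regions 17, 56 and 2. Region 17 is Mba06_g29120 (chromosome 6, 34725641 to 34728448), with 4357 and 4209 FPKM in E1, against 0.860 and 5.33 FPKM in K1, and 3403, 3185 and 3153 FPKM in E7, against 2.07, 1.89 and 4.26 FPKM in K7. It was near 0 in all control libraries and among the abundant regions in all ethylene libraries, with a log2 fold change of 10.29 (SE 0.47, adjusted p = 3.41e-07) on day 1 and 9.82 (SE 0.39, adjusted p = 1.07e-07) on day 7. Region 56 (chromosome 8, 33189129 to 33324397) spans 7 identifiers from Mba08_g19320 to Mba08_g19380, and in E1 A and E7 A its value lay at the span of Mba08_g19320, with 1540 and 561 FPKM. It had 1645 and 1721 FPKM in E1, against 2.80 and 3.99 FPKM in K1, and 687, 837 and 738 FPKM in E7, against 1.06, 2.39 and 1.82 FPKM in K7, with a log2 fold change of 8.59 (SE 0.24, adjusted p = 2.52e-08) on day 1. It was lower in E7 than in E1, at -1.16 (SE 0.22, adjusted p = 0.00404), with the groups apart. In K1 A and K7 B the largest locus was that of Mba08_g19340.

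The falls of day 1 were smaller, and region 9 led them. Region 41 (chromosome 11, 9788607 to 9791984) holds Mba11_g09690 and Mba11_g09700, of which Mba11_g09700 carried 70.4% to 91.6% of the FPKM in the 9 libraries that list it. In K1 B a locus of 3378 bp over both identifiers held the whole value, so the day 1 contrast compares different loci in part. Region 41 had 208 and 166 FPKM in E1, against 1362 and 1504 FPKM in K1, a log2 fold change of -2.94 (SE 0.87, adjusted p = 0.0209). The groups did not overlap, but the call was lost without any 1 of the 4 day 1 libraries, with adjusted p of 0.0661 to 0.0924, with paired-end libraries alone (0.0938) and without the filter on low values (0.0785). On day 7 its libraries were split within both groups, with 357, 1009.9 and 1003 FPKM in E7, against 559, 115 and 1131 FPKM in K7. Region 50 (chromosome 4, 34440097 to 34445273), with the tag C4D60_Mb04t28520 inside, had 119 and 94.0 FPKM in E1, against 802 and 579 FPKM in K1. On day 7 it had 709.9, 528 and 515 FPKM in E7, against 967, 762 and 927 FPKM in K7. Its change was -2.67 (SE 0.25, adjusted p = 2.57e-05) on day 1 and -0.61 (SE 0.20, adjusted p = 0.0758) on day 7.

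On day 7 the largest rises were in regions 16, 17 and 52. Region 16 (chromosome 5, 25927323 to 25967868) contains Mba05_g17690, Mba05_g17700 and Mba05_g17710. It had 5495, 6192 and 5824 FPKM in E7, against 1.17, 5.38 and 1.27 FPKM in K7, a log2 fold change of 10.85 (SE 0.37, adjusted p = 3.6e-08). On day 1 it already had 565 and 560.0 FPKM in E1, against 6.68 and 12.1 FPKM in K1, with 5.81 (SE 0.45, adjusted p = 9.57e-06). In E7 B and E7 C the identifier Mba05_g17690 had 3992 and 3527 FPKM and Mba05_g17700, whose long span includes most of it, had 2194 and 2292 FPKM, and whether fragments were counted in both was not tested. Region 52 (chromosome 2, 25830786 to 25838877) contains Mba02_g14110 and Mba02_g14120. It had 1429, 1237 and 1132 FPKM in E7, against 0.0928, 0.719 and 1.13 FPKM in K7, with 9.63 (SE 0.23, adjusted p = 2.73e-09), and 1055 and 1024 FPKM in E1, against 1.87 and 2.47 FPKM in K1, with 8.37 (SE 0.28, adjusted p = 4.41e-08). In the 5 control libraries the whole value lay at Mba02_g14120, while in the ethylene libraries 1 locus spanned both identifiers.

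The called falls of day 7 were all under 1 on the log2 scale. Region 38 is Mba08_g07930 (chromosome 8, 6148697 to 6152364), with 659, 669 and 632 FPKM in E7, against 1096, 909 and 1158 FPKM in K7. Its change was -0.68 (SE 0.15, adjusted p = 0.0132), and on day 1, with 324 and 322 FPKM in E1, against 1138 and 1191 FPKM in K1, it was -1.85 (SE 0.18, adjusted p = 3.76e-05). Region 40 is Mba06_g26770 (chromosome 6, 32624409 to 32625612), with 544, 658 and 670.3 FPKM in E7, against 958, 866 and 1273 FPKM in K7. It was at -0.71 (SE 0.20, adjusted p = 0.0409) on day 7 and -2.61 (SE 0.24, adjusted p = 2.77e-05) on day 1, when it had 207 and 151 FPKM in E1, against 1155 and 1016 FPKM in K1. These regions were thus low with ethylene on both days and lowest in E1. Region 35 (chromosome 4, 41824498 to 41833515) had 734, 621 and 680.3 FPKM in E7, against 1234, 1004 and 1023 FPKM in K7, and was at -0.68 (SE 0.17, adjusted p = 0.0270) on day 7 and at 0.18 on day 1, when it was not called. The groups of day 7 did not overlap for these 3 regions. The calls of day 7 depended on single libraries: in place of 9 members called lower, 2 were called without E1 A, 2 without E1 C, 5 without E7 A, 0 without E7 B (limma, with 12 at an unadjusted p under 0.05), 1 without E7 C, 4 without K7 A, 8 without K7 B and 3 without K7 C, and all 30 calls fell to 19 without E7 B. Region 40 was lost without any 1 of E1 A, E1 C, E7 A, E7 B, E7 C, K7 A and K7 C (adjusted p of 0.0570 to 0.107), region 38 was lost without E7 B (adjusted p = 0.0504) or E7 C (0.0584), and region 35 was lost without E1 A, E1 C, E7 B, E7 C or K7 A (0.0576 to 0.112). Without the filter on low values, regions 40 and 35 were lost (0.102 and 0.0930), and region 40 also in paired-end libraries alone (0.124) and under median-of-ratios scaling (0.11).

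The members higher with ethylene on both days also include regions 12, 23, 32, 43, 46 and 49, of which region 12 is described below with its neighbours and region 46 with the regions most like region 1. Regions 23, 32, 43 and 49 are outside the rule for named regions. Region 43 (chromosome 5, 14714904 to 14719049), which contains Mba05_g15610, averaged 1367 ± 21.3 FPKM in E1 and 6.67 ± 2.58 FPKM in K1 (SD, n = 2 each), and 1456 ± 44.5 FPKM in E7 and 5.26 ± 1.59 FPKM in K7 (SD, n = 3 each). Region 23 (chromosome 3, 10970472 to 10991373), where Mba03_g13460 and Mba03_g13470 held little of the value, averaged 2757 ± 15.7 FPKM in E1 and 68.8 ± 3.29 FPKM in K1 (SD, n = 2 each), and 2315 ± 267 FPKM in E7 and 67.8 ± 6.56 FPKM in K7 (SD, n = 3 each). Region 32, with Mba03_g02600 (chromosome 3, 1960198 to 1961940), averaged 2049.8 ± 135 FPKM in E1 and 45.7 ± 17.4 FPKM in K1 (SD, n = 2 each), and 1754 ± 146 FPKM in E7 and 46.2 ± 16.9 FPKM in K7 (SD, n = 3 each). All 3 were many times lower in the control libraries. In region 43 the identifier held 73.5% to 95.2% of the value in the ethylene libraries, while the largest locus of all 5 control libraries was another one. In region 23 too the control libraries had their largest locus in another stretch than E7 A and E7 C, so both contrasts compare different loci in part. Region 46, with the tag C4D60_Mb08t05350, averaged 1201 ± 2.56 FPKM in E1 and 35.4 ± 0.711 FPKM in K1 (SD, n = 2 each), and 1386 ± 457 FPKM in E7 and 25.3 ± 7.48 FPKM in K7 (SD, n = 3 each). Region 49 (chromosome 6, 2478398 to 2515513) averaged 980.4 ± 78.7 FPKM in E1 and 25.0 ± 3.34 FPKM in K1 (SD, n = 2 each), and 1324 ± 546 FPKM in E7 and 28.8 ± 12.4 FPKM in K7 (SD, n = 3 each). Mba06_g02880, which lies in region 49, was listed in 4 control libraries alone, at 0 in 3 of them, and does not carry this value. In E1 A, E1 C, E7 A and E7 B the largest locus of region 49 was 14757 to 15159 bp long. In E7 C and the control libraries it was an overlapping one of 30049 to 30055 bp. The contrasts of region 49 too compare different loci in part. The log2 fold changes of day 1 for regions 43, 23, 32, 46 and 49 were 7.52, 5.31, 5.51, 5.05 and 5.24, and those of day 7 were 7.89, 5.07, 5.28, 5.70 and 5.47.

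The examples that follow were chosen after their values were seen. Regions 58, 61 and 53 were called higher on a single day. Region 58 (chromosome 6, 40363152 to 40369109) averaged 993 ± 42.8 FPKM in E1 and 337 ± 30.1 FPKM in K1 (SD, n = 2 each), and 481 ± 43.9 FPKM in E7 and 459 ± 75.9 FPKM in K7 (SD, n = 3 each), with 1.56 (SE 0.20, adjusted p = 0.00021) on day 1 and 0.08 (SE 0.16, adjusted p = 0.796) on day 7. Region 53 (chromosome 7, 5744691 to 5745283) averaged 727 ± 38.1 FPKM in E1 and 538 ± 28.2 FPKM in K1 (SD, n = 2 each), and 723 ± 104 FPKM in E7 and 377 ± 138 FPKM in K7 (SD, n = 3 each), with 0.43 (SE 0.29, adjusted p = 0.253) on day 1 and 0.99 (SE 0.23, adjusted p = 0.0212) on day 7. The difference between days was called for region 58, at -1.48 (SE 0.26, adjusted p = 0.00537), and not for region 53, at 0.56 (SE 0.37, adjusted p = 0.364). Among those lower on both days, region 55 (chromosome 1, 5157895 to 5164163), of which Mba01_g06990 held 0.4% to 41.2%, averaged 218 ± 4.25 FPKM in E1 and 724 ± 4.51 FPKM in K1 (SD, n = 2 each), and 507 ± 35.1 FPKM in E7 and 789.6 ± 106 FPKM in K7 (SD, n = 3 each). Region 26 (chromosome 7, 33601546 to 33606445) averaged 779 ± 24.2 FPKM in E1 and 1243 ± 99.1 FPKM in K1 (SD, n = 2 each), and 999 ± 146 FPKM in E7 and 1564 ± 87.9 FPKM in K7 (SD, n = 3 each). Both were lowest in E1. Among those lower on day 1 alone, region 59 averaged 123 ± 6.46 FPKM in E1 and 667 ± 67.4 FPKM in K1 (SD, n = 2 each), and 512 ± 202 FPKM in E7 and 710.0 ± 73.1 FPKM in K7 (SD, n = 3 each), and region 42 averaged 346 ± 4.20 FPKM in E1 and 945 ± 141 FPKM in K1 (SD, n = 2 each), and 693 ± 41.2 FPKM in E7 and 880.2 ± 98.2 FPKM in K7 (SD, n = 3 each). Region 33 (chromosome 3, 17087438 to 17095147) averaged 652 ± 32.9 FPKM in E1 and 1389 ± 357 FPKM in K1 (SD, n = 2 each), and 733 ± 91.9 FPKM in E7 and 1024 ± 109 FPKM in K7 (SD, n = 3 each). The day 1 change was -2.43 (SE 0.33, adjusted p = 0.000298) for region 59, -1.44 (SE 0.19, adjusted p = 0.000249) for region 42 and -1.07 (SE 0.23, adjusted p = 0.00424) for region 33.

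**Figure D4:**
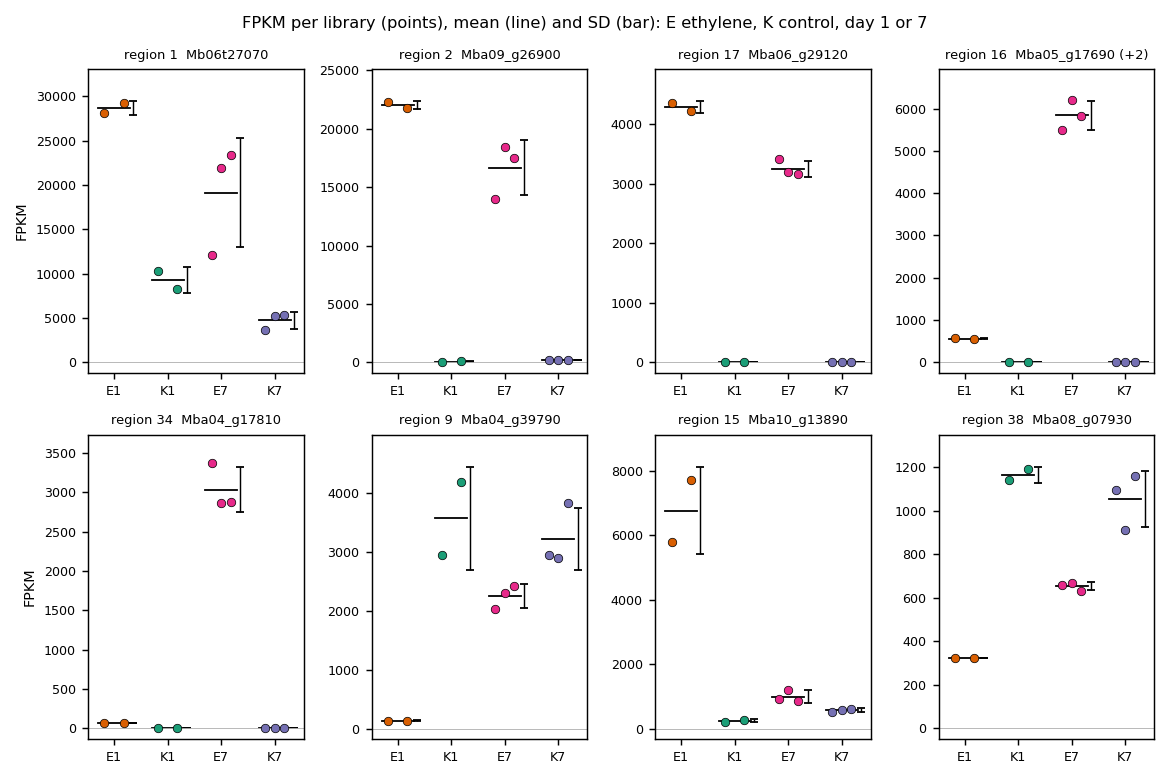
FPKM in each library (points), with the mean (line) and SD (bar to the right) of each group, for 8 regions that follow different courses. Regions 2 and 17 are high in E1 and E7, regions 16 and 34 are highest in E7, region 15 is highest in E1, and regions 9 and 38 are lowest in E1.

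The course within ethylene-treated pulp was compared as E7 minus E1. Of the members, 17 were called higher and 8 lower in E7 than in E1, where 14.3% of all tested regions were called higher and 11.0% lower. Without E1 C the calls fell to 13 higher and 4 lower, and without E1 A to 14 higher and 4 lower. Between control days, 2 members were called higher and 1 lower in K7 than in K1, where 0.262% of all tested regions were called higher and 1.05% lower. The comparisons E7 minus E1 and E1 minus K1 share the E1 libraries, so a region low in E1 alone appears in both.

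Of these, the largest rise was in region 34 (chromosome 4, 21614554 to 21624411), which contains Mba04_g17810. It had 3369.9, 2859 and 2872 FPKM in E7, against 65.2 and 63.5 FPKM in E1, a log2 fold change of 5.53 (SE 0.28, adjusted p = 1.88e-06). The control libraries had 2.51 to 5.99 FPKM over both days, so the rise was seen in ethylene-treated pulp and was large on day 7, at 9.26 (SE 0.25, adjusted p = 6.34e-09) against K7, after 3.86 (SE 0.30, adjusted p = 9.84e-06) on day 1. In E7 B and E7 C the identifier itself held 2857 and 2870 FPKM, and in 4 of the 5 control libraries the largest locus was another one of the region. Region 9, given above, was next. Region 13 (chromosome 1, 20835203 to 20883459) spans 6 identifiers from Mba01_g26770 to Mba01_g26820 and had 6615, 6786 and 5817 FPKM in E7, against 457 and 459.9 FPKM in E1, a change of 3.8 (SE 0.41, adjusted p = 0.00017). In the E7 libraries 99.9% of the value lay in a locus of 1354 to 1736 bp over Mba01_g26770, which itself had 6608 FPKM in E7 A, and in E1 A and E1 C it lay in loci that spanned 17337 and 24231 bp. The change between E7 and E1 thus compares loci of unlike length, and how far the level moved with that length was not tested. Against K7, with 14.1, 8.06 and 12.2 FPKM, the change was 9.04 (SE 0.36, adjusted p = 1.16e-07), and there the largest locus lay in another stretch of the region.

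The largest fall in E7 against E1 was in region 15 (chromosome 10, 31616193 to 31620276), which contains Mba10_g13890. It had 934, 1213 and 849.7 FPKM in E7, against 5800.4 and 7721 FPKM in E1, a log2 fold change of -2.76 (SE 0.22, adjusted p = 3.74e-05). The control libraries had 508, 593 and 618 FPKM in K7, against 222 and 287 FPKM in K1, and were called higher in K7 by 1.17 (SE 0.22, adjusted p = 0.0393), a call lost without any 1 of the 10 libraries (adjusted p of 0.0505 to 0.187). Ethylene stood above control by 4.72 (SE 0.25, adjusted p = 7.85e-07) on day 1 and by 0.79 (SE 0.20, adjusted p = 0.0287) on day 7, and the day 7 call was lost without E7 A, E7 B, K7 A or K7 B (adjusted p of 0.0546 to 0.118). It was also lost with quantile normalization, at 0.39 (adjusted p = 0.113), without the filter on low values (0.105) and with paired-end libraries alone (0.0839). Region 29 is Mba02_g15130 (chromosome 2, 26503524 to 26505760), with 1041, 974 and 923 FPKM in E7, against 3060.2 and 3101 FPKM in E1, a change of -1.65 (SE 0.20, adjusted p = 0.000341). Its control libraries lay between 189.6 and 288 FPKM.

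Region 18 (chromosome 7, 29429361 to 29430796) was likewise lower in E7 than in E1 and higher in K7 than in K1, with 2463, 2109.7 and 2096 FPKM in E7, against 4009 and 3743 FPKM in E1, and 1036, 845 and 842 FPKM in K7, against 194 and 212 FPKM in K1. It was called higher in K7 than in K1 by 2.15 (SE 0.18, adjusted p = 0.00110), the larger of the 2 rises in control pulp. It was called lower in E7 than in E1, at -0.80 (SE 0.18, adjusted p = 0.00900), which was lost without E1 A (adjusted p = 0.0929) or E1 C (0.0628) and without the filter on low values (0.0741). Region 20 is Mba01_g29340 (chromosome 1, 26985075 to 26986369) and was the 1 member called lower in K7 than in K1. It had 927, 999 and 1488 FPKM in K7, against 2638 and 3469.8 FPKM in K1, a change of -1.44 (SE 0.23, adjusted p = 0.0186), and that call was lost without K1 B, K7 A or K7 B (0.0530 to 0.0779), with median-of-ratios scaling (0.0517), with paired-end libraries alone (0.0897) and without the filter on low values (0.126). Its E1 libraries had 1341 and 1297 FPKM and its E7 libraries 1096, 1116 and 987 FPKM, so K1 alone stood high. The count of members called between the control days fell to 1 without K7 A. Fitted on the control libraries alone, limma called 0 members, with 10 at an unadjusted p under 0.05.

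The effect of ethylene differed between the days, by the interaction of treatment and day, for 19 members, 14 with a positive and 5 with a negative difference of day 7 minus day 1, where 8.31% and 5.90% of all tested regions were called. These counts fell to 7 and 4 without E1 A and to 6 and 4 without E1 C. Of the 20 members higher on both days, 5 rose more on day 7, 4 rose less, and 11 were not called. Of the 20 members called lower on day 1, 9 had a smaller fall or none on day 7 by this test and 11 were not called. The shares of all tested regions within these patterns are not given, so these splits describe the members alone. Regions 34, 16 and 9 had the largest positive differences, at 5.40 (SE 0.39, adjusted p = 6.14e-05), 5.04 (SE 0.59, adjusted p = 0.000782) and 4.16 (SE 0.31, adjusted p = 7.08e-05). Regions 15 and 18 had the largest negative ones, at -3.93 (SE 0.32, adjusted p = 9.78e-05) and -2.95 (SE 0.25, adjusted p = 0.000152). In region 34 most control libraries had another largest locus than the ethylene libraries, so its difference compares different loci in part.

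The 18 members called on neither day include some of the most abundant regions of control pulp, such as regions 5, 6, 8 and 11. A missed threshold does not show that they were alike in both treatments, since their log2 fold changes ran from -1.88 to 4.26 on day 1 and from -1.99 to 0.93 on day 7. The spread of the members within a group was smallest in E1, with a median coefficient of variation of 3.90%, against 20.7% in K1, and it was 11.3% in E7, against 20.3% in K7. Coefficients over 50% were found for 0 members in E1, 10 in K1, 5 in E7 and 10 in K7. The single-end libraries were 1 of 2 in K1 and 1 of 3 in E7 and K7, with none in E1, so the spread of E1 and its layout cannot be told apart.

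In some members the value rested on single libraries, and 6 of these are described here, chosen after their values were seen. Against layout, 1 member lay higher and 2 lower in all 3 single-end than in all 7 paired-end libraries, where 5.05% and 0.868% of all tested regions did so. Region 57 is Mba00_g13560 (scaffold 231, 33897 to 34906), with 3.93, 0 and 9.79 FPKM in the single-end E7 A, K1 A and K7 A and with 361 to 1278 FPKM in the paired-end libraries. Region 14 (chromosome 6, 34584670 to 34645563), whose value lay in a locus over the tag C4D60_Mb06t29020, had 739.8, 617 and 459 FPKM in the same 3 libraries and 1709 to 3461 in the others. Region 30 (scaffold 116, 19562 to 23737) went the other way, with 1506, 1609.9 and 1964 FPKM there and 421 to 942 FPKM in the others. It was called lower on day 1, at -1.51 (SE 0.45, adjusted p = 0.0220). Within the paired-end libraries of day 1 it had 425 and 421 FPKM in E1, against 902 FPKM in K1 B.

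Regions 36, 47 and 51 split within the paired-end libraries. In regions 36 and 47 the high libraries were all paired-end and the 3 single-end libraries were low, and region 36 was high on day 7 alone. Region 36 (scaffold 219, 44163 to 51198) had 2375 and 2292 FPKM in E7 B and E7 C and 2844 FPKM in K7 B, and 129 to 256 FPKM in the other 7 libraries. The main locus was 1456 to 1459 bp long in those 3 libraries and 7025 to 7032 bp long in the others, so the level moved with the length of the assembled locus, and which of these is closer to the transcript was not tested. Region 47 (chromosome 3, 9130000 to 9137521) had 1062, 1934 and 1816 FPKM in E7 C, K1 B and K7 C and 189 to 357 FPKM elsewhere. Its identifier Mba03_g11180 was listed at 0 in all 10 libraries, and the value lay in the stretch of C4D60_Mb03t11190. Region 51 (chromosome 10, 8721333 to 8727484) was listed at 0 in K1 A and had 0.189 FPKM in E7 C and 0.0958 FPKM in K7 B, against 137 to 1707 FPKM in the other 7. The identifier inside it, Mba10_g02400, had at most 0.257 FPKM, and in E1 A, E1 C, K1 B, K7 A and K7 C the value came from a short locus of 331 to 390 bp beside it. In K1 A, E7 C and K7 B the largest locus was that of the identifier, 492 bp long, so their low values come from another locus. Whether the short locus was absent there or fell under the limit of 300 bp was not tested.

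**Figure D5:**
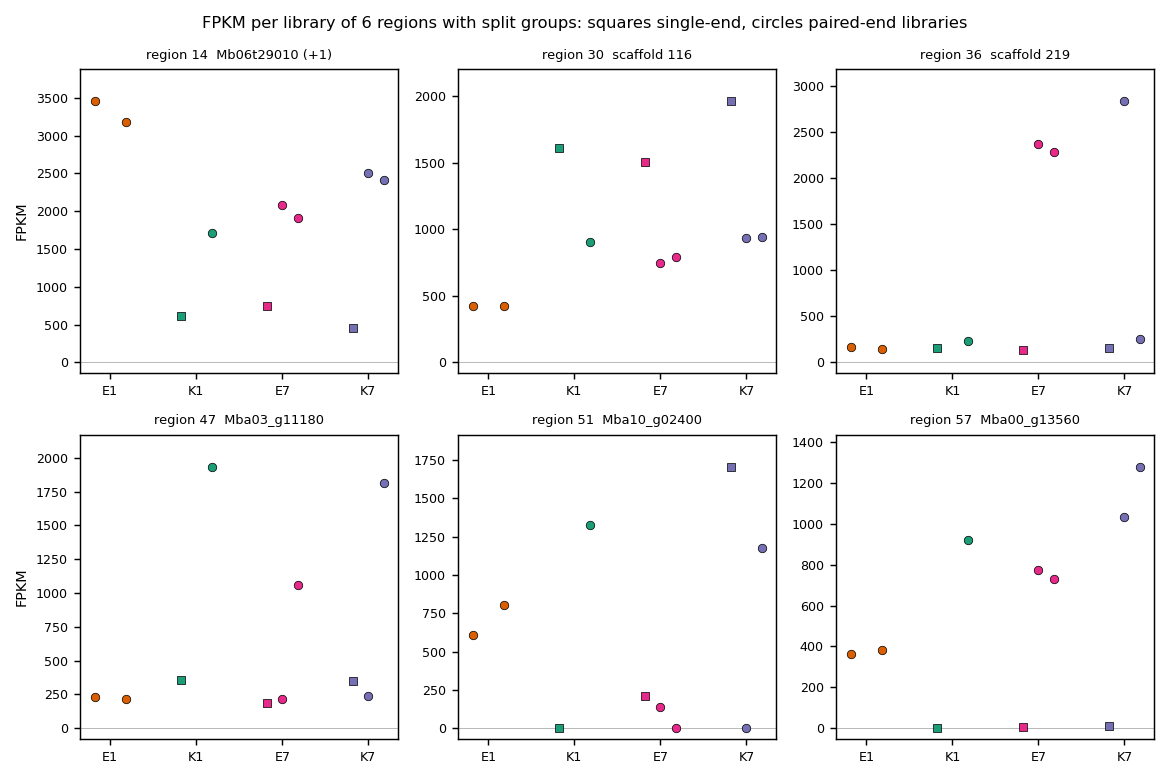
FPKM in each library for 6 regions whose groups are split, with single-end libraries as squares and paired-end libraries as circles (E ethylene, K control, day 1 or 7). Regions 14 and 57 are low and region 30 is high in the squares, while regions 36, 47 and 51 split within the paired-end libraries as well.

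The members were not spread over the assembly as the tested regions were, a description that was not tested. Of the 62, 11 lay on chromosome 6, which is 17.7% of the members and 11.1% of the tested regions. The unplaced scaffolds held 10 members, 16.1% of the members and 3.59% of the tested regions. Of the 10 scaffold members, 0 were called higher and 3 lower on day 1, where 17.1% of all tested regions were called higher and 24.8% lower. On day 7, 0 were called higher and 1 lower, where the shares over all tested regions were 8.75% and 4.71%. With 10 members, nothing is read from these counts. The share of the summed FPKM held by the scaffold members was 2.04% ± 0.0770 in E1 and 3.45% ± 0.552 in K1 (SD, n = 2 each), and 2.98% ± 0.504 in E7 and 4.59% ± 1.02 in K7 (SD, n = 3 each). How reads that map to several places were counted is not given in the sources used here.

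A stretch of chromosome 6 between 32 and 36 Mb held 7 members among 220 tested regions: regions 1, 12, 14, 17, 25, 39 and 40. No rule fixed the borders of this stretch, so nothing is read from that count. These 7 members did not move together. Regions 1, 12 and 17 were called higher on both days, regions 39 and 40 lower on both, and regions 14 and 25 on neither. Region 12 is Mba06_g28720 (chromosome 6, 34287428 to 34288601), with 4535 and 4496 FPKM in E1, against 742 and 1489 FPKM in K1, and 2579.5, 2449 and 2277 FPKM in E7, against 801, 602 and 844 FPKM in K7. Region 39 is Mba06_g28490 (chromosome 6, 34100393 to 34105807), 181.6 kb away, with 304 and 302 FPKM in E1, against 757 and 642 FPKM in K1, and 872, 762 and 791 FPKM in E7, against 1373, 1066 and 1154 FPKM in K7. These neighbours thus went in opposite directions with ethylene on both days, and they too were picked after their values were seen.

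The length of the members, from 593 bp to 358190 bp with a median of 5296 bp, was near that of the tested regions, whose median was 6790 bp. In 30 members every library listed 1 locus, and in 32 the value was a sum over more. In 27 of those 32 the largest locus held over 50% of the value in every library. Mba identifiers lay inside 31 members, 49 identifiers in all, with 1 identifier in 24 members and more in 7. The other 31 members held none, and all 17 of these that lie on chromosomes where the RefSeq table's spans match the identifiers contained a locus tag of that table. An identifier inside a region did not always carry its value: Mba09_g16170 in region 42 (chromosome 9, 12856280 to 12863170) held 0% of it in the 9 libraries that list it, and Mba11_g04280 in region 59 (chromosome 11, 3844835 to 3860092) held 0.1% to 1.0%.

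The members whose level was most like that of region 1 over the 10 libraries were region 46 (chromosome 8, 4169497 to 4173504), with a Pearson r of log2(FPKM + 1) of 0.919, region 56 with 0.919 and region 4 with 0.918. These values are a description: the points share libraries and treatments, and all 3 regions separate ethylene from control libraries as region 1 does.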

How the data were processed

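Pulp RNA of Klutuk Wulung was sequenced in 10 libraries, and the authors deposited for each a table of assembled loci with FPKM and its lower and upper bounds. The submitters' processing notes name FastQC 0.11.8, Trimmomatic 0.38.0, TopHat and Cufflinks 2.2.2.1. The study's methods give a different version number for Cufflinks and also state one for TopHat. No source used here gives the strand setting, the treatment of multi-mapped reads or the options of the assembly. The tables hold no fragment counts, so no count model was used and no counting interval is given, and the study's read totals per library were not used here. Loci of 300 bp or more were pooled and joined where they overlapped, FPKM was summed per region and table, and regions missing from any table were left out (Python 3.11.15, pandas 2.3.3, numpy 2.4.6). The locus bounds follow each library's assembly, so a region may join several genes and its sum may include overlapping loci. Regions with a mean of at least 1 FPKM were tested on log2(FPKM + 1), using R 4.3.3 and its package limma 3.58.1, a variance trend, 1 mean for each of the 4 groups and Benjamini-Hochberg adjustment over all 16821 regions, and the procedure was tested on simulated data. Groups came from the labels, and the read layout from the study's methods.

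The regions named are the 10 with the highest mean. For each of the 4 comparisons, up to 3 rises and up to 3 falls are added, taken from the extremes among called regions whose libraries did not overlap. The regions nearest the 500 FPKM limit and the 3 regions most like region 1 complete the list. Members and lists were chosen with earlier results of these data known. Locus tags come from the RefSeq table of assembly BananaB_V1, matched where 94.3% to 99.9% of identifier spans on a chromosome were equal; on chromosomes 7 and 10 none were, and no tag was used there. Alternatives changed the pseudocount, filter, scaling, layout, replicate block, libraries, region building and the member limit.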

Additional observations from a re-analysis of the deposited data

Results flagged for a closer look

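The effect of ethylene on day 7 minus that on day 1, tested as an interaction in limma with Benjamini-Hochberg adjustment over all regions, was called for 19 members, 14 of which the rule for named regions holds. Each value is given on the log2(FPKM + 1) scale. A positive difference was found for Mba04_g17810 in region 34 (5.40, SE 0.39, adjusted p = 6.14e-05), region 16 (5.04, SE 0.59, adjusted p = 0.000782), Mba04_g39790, which is region 9 (4.16, SE 0.31, adjusted p = 7.08e-05), and region 13 (3.92, SE 0.57, adjusted p = 0.00229). Smaller positive differences were found for region 10 (2.22, SE 0.45, adjusted p = 0.0106), region 50 (2.07, SE 0.32, adjusted p = 0.00292), Mba06_g26770, which is region 40 (1.90, SE 0.31, adjusted p = 0.00412), and region 52 (1.27, SE 0.36, adjusted p = 0.0444). The smallest among the named regions were those of Mba08_g07930, which is region 38 (1.16, SE 0.23, adjusted p = 0.00961), and Mba01_g29340, which is region 20 (1.13, SE 0.33, adjusted p = 0.0484). A negative difference was found for Mba10_g13890 in region 15 (-3.93, SE 0.32, adjusted p = 9.78e-05), region 18 (-2.95, SE 0.25, adjusted p = 0.000152), Mba09_g26900, which is region 2 (-2.06, SE 0.48, adjusted p = 0.0194), and Mba02_g15130, which is region 29 (-1.80, SE 0.28, adjusted p = 0.00338). The other 5 members were regions 42, 44, 55 and 59, with differences of 1.1, 1.13, 1.1 and 1.87, and region 58, with -1.48. In regions 10, 13 and 34 the largest locus of most control libraries lay in another stretch than that of some ethylene libraries. The differences of these regions thus compare different loci in part.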

How the results depend on the processing

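Of 56 calls of named regions, 38 held under all 22 alternatives to the fit, 18 were lost under at least 1, and none changed direction; the causes were not tested. Without the filter on low values, 15 of these calls were lost. Lowering the member limit to 250 FPKM gave 137 members, of which 90 were called for E1 minus K1, 57 for E7 minus K7, 57 for E7 minus E1 and 44 for the interaction, and raising it to 1000 FPKM gave 30 members, with 19, 14, 12 and 9 called, counts that follow from the number of members. The 3 calls of K7 minus K1 became 1 with no filter, 1 with median-of-ratios scaling, 5 with quantile normalization, 1 with paired-end libraries alone, 7 with layout as a term, and 0 with those groups alone (limma, with 10 at an unadjusted p under 0.05). Leaving out 1 library gave 36 to 44 calls for E1 minus K1, 19 to 34 for E7 minus K7, 17 to 26 for E7 minus E1, 1 to 3 for K7 minus K1 and 10 to 20 for the interaction, and 63 to 65 members. Quantile normalization changed the day 7 calls to 18 higher and 22 lower, and median-of-ratios scaling the interaction to 10 positive and 6 negative. The shares of all tested regions called under the alternatives are not given, so the counts under them describe the members alone. The share held by members in E1 was 32.6% with loci of at least 200 bp, 32.5% with 500 bp and 29.1% with 1000 bp, 32.4% with the highest locus in place of the sum, 38.3% and 27.9% with limits of 250 and 1000 FPKM, 32.5% with the mean of group means, 30.4% with the median over libraries and 32.8% with paired-end libraries alone. In K1 it was 21.7% with loci of at least 200 bp, and 24.1% and 12.7% with those limits. In E7 it was 37.4% and 24.9% with those limits and 26.3% with the median. In K7 it was 21.0% with loci of at least 200 bp, and 25.0% and 12.9% with those limits. The deviations of same-lettered E7 and K7 libraries had r of 0.332 for A, 0.031 for B and 0.118 for C, not all above 0.1, so the libraries were not taken as paired. E7 A and K7 A are both single-end, so letter and layout cannot be told apart in their r. With a replicate block by letter, 43, 30, 26, 3 and 19 members were called in the order above, and with one by number 45, 32, 25, 3 and 19. No count moved by over 1.5 times, and the day 7 call of region 40 was lost with letters (adjusted p = 0.0574). Precision is limited by 2 or 3 libraries a group and by tables without fragment counts.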
